A study of Mus musculus with 24 samples.

Results

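The subject is the last stretch of maturation of the wild-type mouse retina, between postnatal day 10 (P10) and 2 months. Members were chosen by sample label alone, as the 4 wild-type P10 arrays and the 4 wild-type 2-month arrays, which are 8 of the 24 arrays of the series, and all probe sets other than array controls were compared between them, 12422 of 12488. Each array was hybridised with labelled RNA from whole retina. Wild-type mice were of a mixed R1 and C57BL/6 background matched to that of mice lacking Nrl, a transcription factor required to form rods, which supplied 4 knockout arrays at each of the same ages. No treatment is given for any group, and P2 arrays of both genotypes complete the series. Whether each replicate came from 1 mouse or from several pooled ones is not in the labels, and the p-values cover no more than the spread among these samples, which may be technical. Age cannot be told apart from any batch that followed it. Whole tissue was measured, so fewer cells of a type and less RNA per cell cannot be told apart.

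At P10 the mouse retina has all its neuron classes, cell division is nearly over, and the eyes are still closed. In the following weeks the eyes open, rods extend their outer segments, the stacked discs in which light is detected, and synapses, vessels and Müller glia take their adult form. In phototransduction an opsin activates transducin, transducin activates the phosphodiesterase PDE6, cGMP falls and the cGMP-gated channel closes. Guanylate cyclase with its calcium sensors, arrestin and the RGS9 complex then return the cell to its dark state. The photoreceptor factor CRX binds a short core sequence near many of these genes.

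Array medians were 65.7 to 71.3 at P10 and 70.2 to 71.3 at 2 months (exact permutation test, two-sided, p = 0.343). Pearson correlations across probe sets were 0.993 to 0.997 within each age and 0.980 to 0.987 between ages. The ratio of 3' to 5' control probe sets for Gapdh was 0.839 to 0.875 at P10 and 0.882 to 0.990 at 2 months, with p = 0.0286, the smallest that an exact permutation test of 4 against 4 allows (0.143 after adjustment over the array measures). The part of this ratio in the results was not tested. Array 4 of P10 stood apart among the genes lower at 2 months. For these it was the highest of the 4 P10 arrays for 71.3%, against 17.5%, 4.37% and 6.88% for arrays 1, 2 and 3. Among the genes higher at 2 months it was the lowest for 17.9%, against 33.0%, 24.5% and 24.6%. Without it, 841 probe sets were higher at 2 months and 688 lower, against 917 (7.38% of all tested) and 949 (7.64%) with it. Xist, the X-inactivation RNA, read 94.7, 85.8, 123 and 73.6 at P10 and 107, 10.2, 9.00 and 45.5 at 2 months, and the Y-linked Eif2s3y read 66.0, 63.5, 74.7 and 77.2 and 25.8, 126, 122 and 73.9, so the sex make-up differed among the 2-month samples. Every P10 array read both genes at 63.5 or more, so the mix of sexes at P10 differed from that of 2-month arrays 1, 2 and 3. Whether the P10 samples were pools of both sexes was not tested, nor was the part of sex in the changes. Of 4 measured sex-linked genes 0 passed the test.

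Of 8251 genes, 691 rose between P10 and 2 months (8.37% of all tested) and 756 fell (9.16%) at an adjusted p under 0.05, by limma with Benjamini-Hochberg adjustment over all probe sets. At 2-fold or more, 64 genes were higher (0.776%) and 47 lower (0.57%), or 83 probe sets (0.668%) and 58 (0.467%). The list counts below are to be read beside the 8.37% and 9.16% of all genes. The median size of a called change was 0.41 on the log2 scale, and the median over all probe sets was 0.03. Over all genes the 4 arrays of 2 months lay wholly above those of P10 for 867 genes (10.5%) and wholly below for 876 (10.6%). All values below are RMA intensities on the linear scale, given array by array in replicate order or as mean ± SD over 4 arrays. Changes are log2 differences, 2 months minus P10, ± standard error, and adjusted p is that of limma.

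The largest rises were those of a kinase regulated by hormones and stress and of genes of glucose use, phototransduction, immediate early signalling, the extracellular matrix and the lens. Sgk1, Hk2, Guca1a, Fos, Vtn and Crygs rose by 2.61 to 4.36. The largest falls were those of Nnat, Marcksl1, Fabp7, Crym and Myb, which fell by 2.03 to 3.02, several of them known from immature neurons, progenitors and glia. Only genes whose 4 values of 2 months lay wholly on one side of the 4 of P10 could enter the largest rises and falls. For such genes, here and below, non-overlap therefore holds by choice.

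Promoter sequence is shown for 4 genes, the largest rises in the rod, regulator and outer segment lists among those with a sequence. Genes of 1 chromosome were left out of this choice. All 4 sequences hold the core bound by CRX. Each is the stretch of 250 bases before the RefSeq start on mouse assembly GRCm38.p6, upstream of the first exon, 5′ to 3′ on the gene's own strand. Capitals mark the core, TAATCC, or GGATTA where it lies on the opposite strand. Guca1a lies on the minus strand with its promoter at chr17:47400607-47400856, Abca4 on the plus strand at chr3:122044210-122044459, Cnga1 on the minus strand at chr5:72642753-72643002, and Gnb5 on the plus strand at chr9:75306038-75306287.
Guca1a: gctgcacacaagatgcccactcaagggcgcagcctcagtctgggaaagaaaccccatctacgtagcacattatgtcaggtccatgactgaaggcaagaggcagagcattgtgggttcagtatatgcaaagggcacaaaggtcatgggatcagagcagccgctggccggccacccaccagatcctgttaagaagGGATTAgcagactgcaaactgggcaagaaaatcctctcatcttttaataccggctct
Abca4: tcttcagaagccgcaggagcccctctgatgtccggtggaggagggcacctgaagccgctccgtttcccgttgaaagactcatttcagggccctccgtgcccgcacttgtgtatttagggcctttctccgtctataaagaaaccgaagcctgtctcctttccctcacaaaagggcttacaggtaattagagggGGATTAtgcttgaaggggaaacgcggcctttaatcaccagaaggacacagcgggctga
Cnga1: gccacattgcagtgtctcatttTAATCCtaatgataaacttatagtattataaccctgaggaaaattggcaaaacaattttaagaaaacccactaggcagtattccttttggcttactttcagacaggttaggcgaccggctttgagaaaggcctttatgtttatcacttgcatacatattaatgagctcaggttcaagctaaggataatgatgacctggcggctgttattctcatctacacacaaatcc
Gnb5: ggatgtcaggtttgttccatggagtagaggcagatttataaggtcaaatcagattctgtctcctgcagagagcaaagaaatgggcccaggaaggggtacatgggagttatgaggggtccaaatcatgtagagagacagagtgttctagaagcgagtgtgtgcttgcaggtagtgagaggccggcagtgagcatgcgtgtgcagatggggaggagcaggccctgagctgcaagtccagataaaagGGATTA
Counted back from the start, the core spans bases 57 to 52 for Guca1a, 58 to 53 for Abca4, 228 to 223 for Cnga1 and 6 to 1 for Gnb5. Of 15 rod, regulator and outer segment genes that rose, 11 have a promoter in the table, and 4 of those (36.4%) hold the core on either strand. The core is in 5.06% of 6576 promoters of genes on the array and in 6.38% of 27025 promoters of all genes, 1 promoter each. The 4 that hold it are the 4 shown. Genes of these lists that did not rise were not counted, so a link of the core to the rise was not tested. A short core of NRL sites, TGCTGA or TCAGCA, was in 1 of the 11 (9.09%), against 13.2% of the array genes and 15.8% of all. None of the 4 stretches shown holds that core. A match is a run of letters, and binding was not measured here.

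Of 9 measured rod genes 7 rose, 0 fell and 2 did not pass the test, and their median change was 0.79 (all genes, 0.03). Gnat1, the rod transducin alpha subunit, read 1699, 1216, 1356 and 725 at P10 and 5601, 5952, 5368 and 4624 at 2 months. Its lowest adult array was above its highest P10 array, and array 4 of P10 was far below the other P10 arrays. The change was 2.17 ± 0.35 (adjusted p = 3.47e-05). At P2, before outer segments form, Gnat1 averaged 16.8 ± 6.20, and in knockout retina it stood at 14.6 ± 5.70 at P10 and 27.3 ± 27.0 at 2 months.

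All 3 measured subunits of rod PDE6 rose. Pde6a, a catalytic subunit, read 168, 156, 186 and 116 and then 379.8, 295, 346 and 333, a change of 1.13 ± 0.16 (adjusted p = 4.28e-06). Pde6b, the other catalytic subunit, went from 1148 ± 64.2 to 1829.9 ± 114, a change of 0.67 ± 0.13 (adjusted p = 0.000263). Pde6g, the inhibitory subunit, went from 3619 ± 240.4 to 5399 ± 304, a change of 0.58 ± 0.08 (adjusted p = 6.49e-06). In all 3 the ages did not overlap, and the differences between subunits were not tested. Pde6b and Pde6g are given as members of this family and were named after their values had been seen.

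Cnga1, the channel subunit that cGMP holds open in rods, read 146, 187, 149 and 134 at P10 and 317, 265, 339 and 337 at 2 months. Its 4 adult values all exceeded those of P10, with a change of 1.03 ± 0.10 (adjusted p = 1.1e-08). In knockout retina Cnga1 read 16.2 ± 0.942 and 17.4 ± 2.13, close to wild-type P2 (17.9 ± 1.31). Reep6, an endoplasmic reticulum protein of rods, read 1332, 1163, 1114 and 1217 and then 3036, 3301, 2873 and 3121, again without overlap. It rose by 1.35 ± 0.09 (adjusted p = 4.88e-12). Esrrb, a nuclear receptor of rods, went from 43.6 ± 5.99 to 75.3 ± 8.37, a change of 0.79 ± 0.12 (adjusted p = 1.5e-05). Nrl itself, a member of the rod list named after its values were seen, read 135 ± 14.4 at P10 and 145 ± 29.3 at 2 months and did not pass (adjusted p = 0.726).

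**Figure D1:**
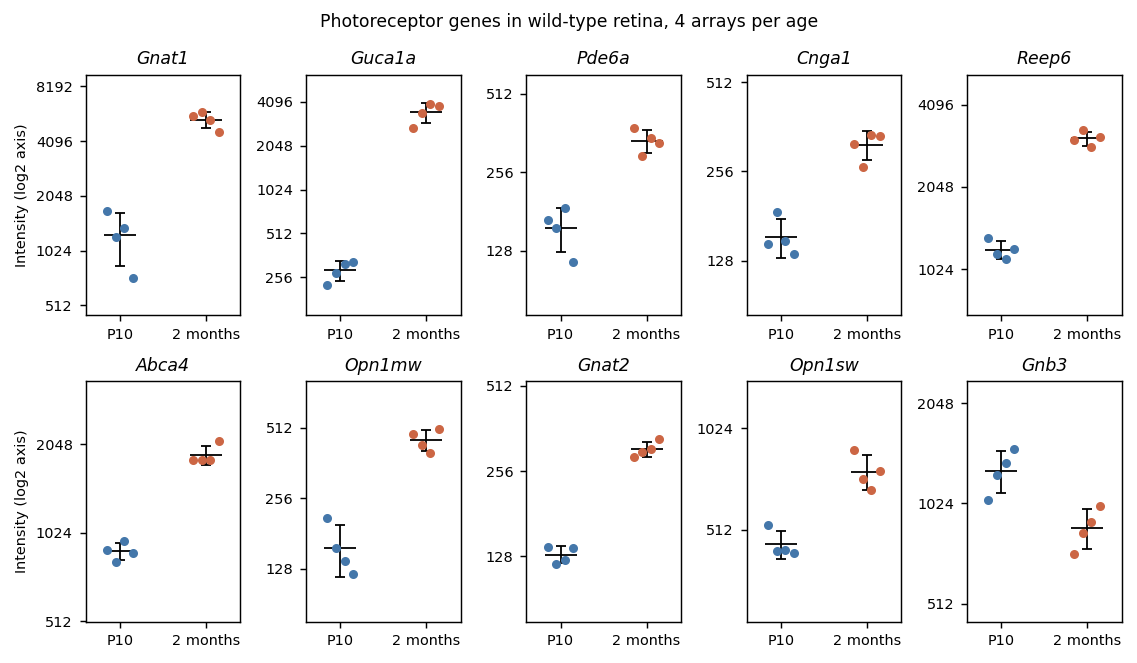
Intensity on a log2 axis of 10 photoreceptor genes on the 4 wild-type P10 arrays (blue) and the 4 wild-type 2-month arrays (orange); the horizontal line is the mean and the bar 1 SD. In each panel the ages do not overlap, with 9 genes higher at 2 months and Gnb3, a cone gene, lower. The panels were picked from the rod, regulator, outer segment and cone lists. Members whose ages overlapped, such as Prph2, Rpgr and Pde6d, are not shown. Over all genes the 2-month arrays lay wholly above P10 for 10.5% and wholly below for 10.6%.

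Among regulators of the cascade, 5 of 10 rose and 0 fell, with a median of 0.35. Guca1a, which encodes GCAP1, a calcium sensor of guanylate cyclase, read 226, 275, 315 and 328 at P10 and 2714, 3449, 3927 and 3810.2 at 2 months. Every adult array was several times brighter than any P10 array, and the change was 3.60 ± 0.19 (adjusted p = 4.89e-14), a ratio of means of 12.1. Gnb5, the G protein beta subunit that holds RGS9, rose from 385 ± 28.9 to 740.2 ± 74.3 (0.94 ± 0.10, adjusted p = 3.1e-08). Unc119, a chaperone for lipid-modified transducin, read 3411, 3046, 2979 and 3311 and then 4520.0, 4826, 4667 and 4958, and rose by 0.58 ± 0.07 (adjusted p = 8.29e-07). Pde6d, a carrier of prenylated proteins, rose by 0.40 ± 0.10 (adjusted p = 0.00728), though its highest P10 value, 484, lay above its lowest adult value, 479. Sag, rod arrestin, read 3579, 4148, 4470.4 and 3952 and then 4473, 5431, 5943 and 5441, a change of 0.40 ± 0.17 that did not pass (adjusted p = 0.149). It passed when only the 8 arrays compared entered the fit, without or with the replicate number as a block (adjusted p = 0.00608 and 0.000718).

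Of 8 outer segment genes 3 rose and 1 fell, with a median of 0.25. Abca4, the disc transporter that clears retinal, read 897, 817, 960.2 and 875 at P10 and 1813, 1816, 1804 and 2093 at 2 months. The ages were well apart, and Abca4 rose by 1.08 ± 0.09 (adjusted p = 8.31e-10). Rom1, a disc rim protein, rose from 827 ± 22.0 to 1333 ± 153 (0.68 ± 0.11, adjusted p = 3.34e-05), and a second Rom1 probe set changed by 0.84. Tulp1, needed for protein traffic to the outer segment, rose from 2972 ± 169 to 4067 ± 267 (0.45 ± 0.08, adjusted p = 7.25e-05). Rpgr, a protein of the connecting cilium, fell from 52.7 ± 8.32 to 34.6 ± 6.96 (-0.62 ± 0.14, adjusted p = 0.0027), and its ages overlapped. Prph2, the other disc rim protein, read 416, 194, 465 and 181 at P10 and 831, 282, 443 and 180.3 at 2 months, so its arrays overlapped almost wholly and the change of 0.37 ± 0.33 did not pass (adjusted p = 0.604). Without 2-month array 1 the Prph2 change was -0.024.

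Cone genes moved in both directions: 3 of 8 rose, 1 fell, and the median was 0.07. Opn1mw, the middle-wavelength opsin, read 211, 156, 138 and 121 at P10 and 482, 431, 399.9 and 504 at 2 months, and rose by 1.56 ± 0.17 (adjusted p = 5.41e-08). Gnat2, cone transducin alpha, read 138, 121, 124 and 137 and then 287, 299, 306 and 331, with a change of 1.23 ± 0.13 (adjusted p = 3.5e-08). Opn1sw, the short-wavelength opsin, rose from 464 ± 43.6 to 762 ± 89.7 (0.71 ± 0.12, adjusted p = 8.09e-05). None of these 3 genes had overlapping ages. Gnb3, the cone transducin beta subunit, which bipolar cells also express, read 1046, 1248, 1354 and 1489 at P10 and 723, 834, 901 and 1007 at 2 months and fell by 0.57 in log2 units (adjusted p = 0.00669). In the retinoid list 1 of 10 genes rose and 1 fell: Crabp1, which binds retinoic acid, went from 201 ± 36.4 to 92.9 ± 4.61 (-1.10 ± 0.11, adjusted p = 9.77e-09).

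Of 25 genes of glycolysis and energy supply 15 rose, 0 fell and 10 did not pass the test, with a median of 0.49. Besides enzymes of glycolysis, this list holds glucose and lactate carriers, creatine kinases and glycogen phosphorylases. Photoreceptors turn most of their glucose into lactate, and Hk2, hexokinase 2, is their inducible form of the first enzyme of glycolysis. Hk2 read 110.1, 112, 105 and 129 at P10 and 1124, 1490.0, 1474 and 1598 at 2 months. The adult arrays were about an order of magnitude brighter, with a change of 3.63 ± 0.11 (adjusted p = 3.16e-19) and a ratio of means of 12.5. At P2 the mean was 117 ± 15.1, close to that of P10. A second, dim Hk2 probe set changed by 0.27 (adjusted p = 0.0607).

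Aldoc, the brain aldolase, rose from 519.9 ± 48.3 to 1414 ± 87.2 (1.45 ± 0.12, adjusted p = 3.26e-10). Pfkl and Pfkp, subunits of phosphofructokinase, rose from 661 ± 83.1 to 1213 ± 108 (0.88 ± 0.09, adjusted p = 2.71e-08) and from 272 ± 35.2 to 535 ± 82.7 (0.97 ± 0.11, adjusted p = 1.34e-07), and a second Pfkp probe set changed by 0.80. In each of these 3 genes the lowest adult array lay above the highest P10 array. Slc16a1, the lactate carrier MCT1, rose by 1.06 ± 0.13 (adjusted p = 4.44e-07), from 14.5 ± 1.54, a level at percentile 12.9 of P10 probe sets. The files do not separate levels this low from background, so the size of such a change is uncertain. Pygm, the muscle form of glycogen phosphorylase, rose from 85.2 ± 1.62 to 155 ± 18.7 (0.86 ± 0.15, adjusted p = 0.000125).

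Of 73 oxidative phosphorylation genes 1 rose and 11 fell, with a median of -0.09. Sdha, a subunit of succinate dehydrogenase, was the 1 that rose, from 58.3 ± 4.58 to 107 ± 13.2 (0.88 ± 0.11, adjusted p = 1.39e-06). Sdhd, another subunit of the same enzyme, went the other way, from 568 ± 30.02 to 399.5 ± 47.7 (-0.51 ± 0.09, adjusted p = 0.000159). Atp5o and Atp5mpl, of the ATP synthase, fell by 0.54 and 0.54 (adjusted p = 0.000154 and 1.74e-05). Among 19 genes of the citric acid cycle 1 rose, Sucla2, a subunit of succinyl-CoA synthetase (0.59 ± 0.08, adjusted p = 1.89e-06), and 3 fell, with a median of 0.00.

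**Figure D2:**
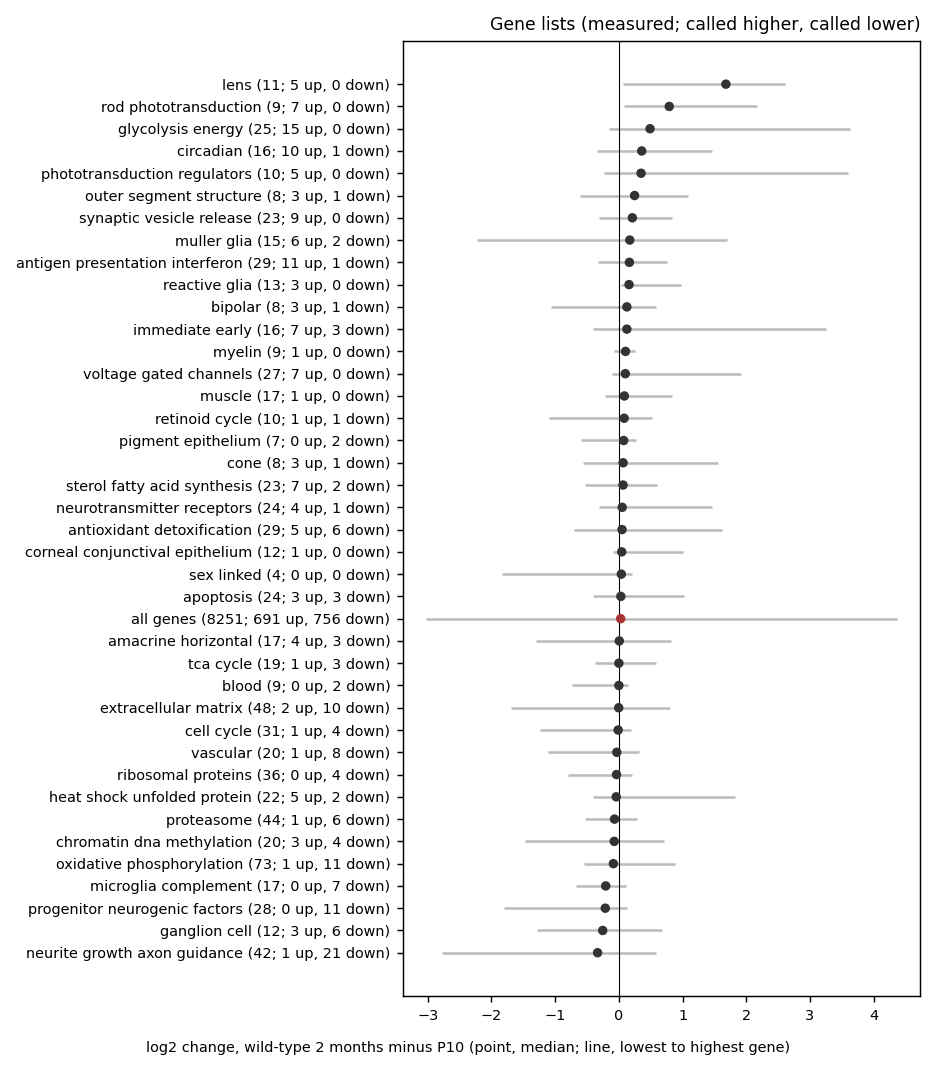
Log2 change from P10 to 2 months in wild-type retina for 39 gene lists and all genes (red point): each point is the median of the measured members and each grey line runs from the lowest to the highest member. The lens list, the rod list and the list of glycolysis and energy supply have the highest medians (1.68, 0.79 and 0.49) and the neurite list the lowest (-0.33).

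Sgk1, a kinase switched on by glucocorticoids and cell stress, had the largest change of any named gene. It read 25.6, 21.2, 24.1 and 20.9 at P10 and 419, 497, 535 and 444 at 2 months. All 4 adult arrays were far above P10, and the change was 4.36 ± 0.11 (adjusted p = 1.95e-21). Its P10 mean was at percentile 20.8 of probe sets, near the level at P2 (16.6 ± 1.80), so the fold is uncertain. Mt1 and Mt2, metallothioneins, bind zinc and copper and also respond to glucocorticoids. Mt1 read 199, 166, 186 and 181 at P10 and 599, 526, 549 and 581 at 2 months, without overlap. It rose by 1.62 ± 0.10 (adjusted p = 1.31e-12) and Mt2 by 1.30 ± 0.09 (adjusted p = 4.9e-12). Over the antioxidant and detoxification list, 5 of 29 rose and 6 fell.

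Immediate early genes, which cells switch on within minutes of a stimulus, rose for 7 of 16 and fell for 3. Fos read 17.8, 20.1, 14.9 and 17.7 at P10 and 138, 172, 188 and 171 at 2 months, with no overlap and a change of 3.24 ± 0.19 (adjusted p = 1.87e-13). Its P10 level was at percentile 16.1, and a second, dim Fos probe set changed by 0.09 (adjusted p = 0.673). Egr1 read 182, 211, 162 and 183 and then 685, 492, 421 and 555 and rose by 1.53 ± 0.19 (adjusted p = 6.15e-07), and its dim second probe set changed by -0.01. These are transcription factors. Dusp1, a phosphatase that shuts off MAP kinases, rose by 1.31 ± 0.12 (adjusted p = 1.31e-09), the nuclear receptor Nr4a1 by 0.95 ± 0.14 (adjusted p = 1.19e-05) and Ier2 by 0.89 ± 0.12 (adjusted p = 2.12e-06).

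In the heat shock and unfolded protein list 5 of 22 rose and 2 fell, and the list median was -0.04 (0.04 with each gene's probe sets averaged), unlike its largest changes. Hspa1a and Hspa1b, near-identical genes of inducible HSP70 whose probe sets may share signal, went from 149 ± 11.7 to 503 ± 26.3 (1.76 ± 0.09, adjusted p = 3.5e-14) and from 74.9 ± 4.92 to 265 ± 13.3 (1.82 ± 0.09, adjusted p = 1.18e-14). Hspa4l, a co-chaperone of the HSP110 family, rose by 0.61 ± 0.10 (adjusted p = 6.6e-05). Tnfaip3, an inhibitor of NF-kappaB, read 101, 63.6, 68.1 and 64.5 at P10 and 439, 318, 252 and 322 at 2 months. Its adult arrays all lay above P10, by 2.16 ± 0.15 (adjusted p = 1.06e-11). Among 24 apoptosis genes 3 rose and 3 fell, and Bnip3, a mitochondrial protein induced by low oxygen, rose by 1.02 ± 0.13 (adjusted p = 1.15e-06).

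Clock genes rose for 10 of 16 and fell for 1, with a median of 0.36. Dbp, an output factor of the clock, read 78.3, 86.3, 82.0 and 84.1 at P10 and 134, 139, 149 and 153 at 2 months, and rose by 0.80 ± 0.10 (adjusted p = 5.51e-07). Nr1d1 and Nr1d2, the REV-ERB repressors, rose by 1.00 ± 0.11 and 0.82 ± 0.11 (adjusted p = 1.05e-07 and 1.52e-06). None of the 3 overlapped between ages. Bhlhe40, a repressor of the clock, rose from 22.6 ± 1.46 to 62.6 ± 5.39 (1.47 ± 0.10, adjusted p = 1.06e-11). Per2 rose by 0.70 ± 0.09 (adjusted p = 7.87e-07), but from a level at percentile 2.79 of probe sets. The hour of collection is not given in the sources used here, and its part in the clock and immediate early genes was not tested.

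**Figure D3:**
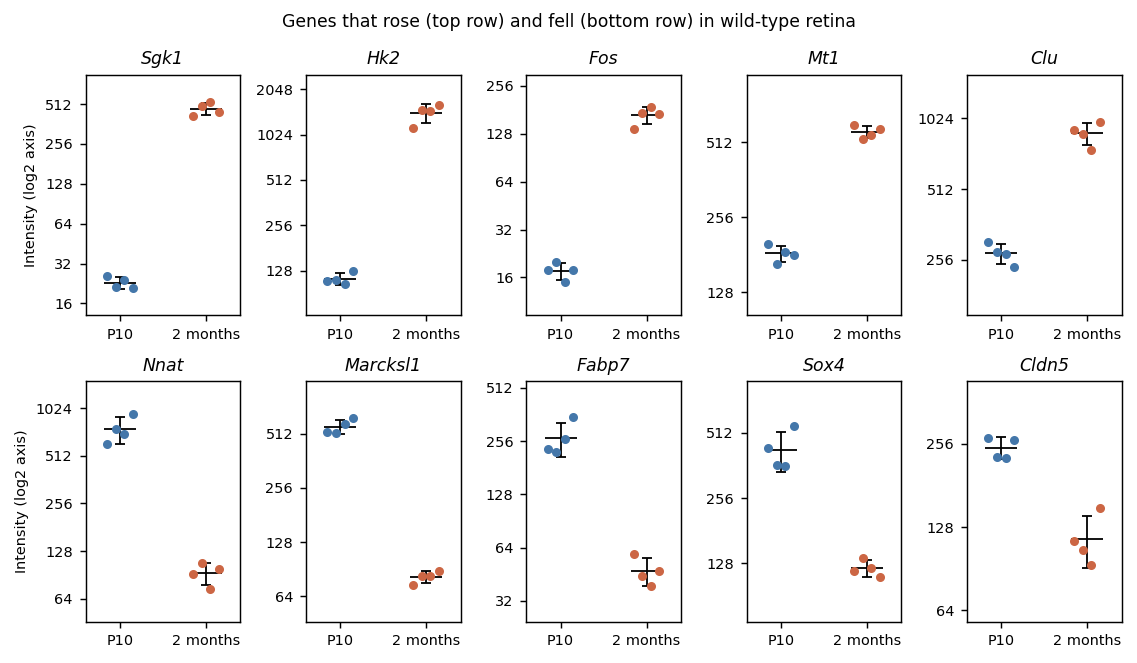
Intensity on a log2 axis of 5 genes that rose (top row) and 5 that fell (bottom row) on the 4 wild-type P10 arrays (blue) and the 4 wild-type 2-month arrays (orange); the horizontal line is the mean and the bar 1 SD. The ages do not overlap in any panel, which was a condition of choice for the largest rises and falls. The mean of Sgk1 goes from 23.0 to 474 while that of Nnat goes from 753 to 92.6.

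Of 15 Müller glia genes 6 rose and 2 fell, with a median of 0.17. Müller cells span the retina, take up glutamate and move water and ions. Glul, glutamine synthetase, read 269.7, 216, 312 and 229 at P10 and 566, 662, 712 and 665 at 2 months and rose by 1.35 ± 0.11 (adjusted p = 1.25e-10), while a second Glul probe set changed by 0.08. Aqp4, the water channel of Müller endfeet, read 66.4, 67.0, 70.7 and 43.5 and then 162, 209, 223 and 156. Array 4 of P10 was the lowest, no ages overlapped, and Aqp4 rose by 1.61 ± 0.13 (adjusted p = 2.03e-10), with 1.20 on a second probe set. Clu, clusterin, a secreted chaperone, read 304, 278, 272 and 238 and then 917, 881, 752 and 984, and rose by 1.69 ± 0.09 (adjusted p = 1.21e-13), with 1.36 on a second probe set.

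The 2 Müller list genes that fell were Crym and Dbi. Crym, which binds thyroid hormone, read 443, 366, 366 and 538 at P10 and 79.0, 88.3, 87.6 and 108 at 2 months and fell by 2.23 in log2 units (adjusted p = 8.6e-15). Dbi, the acyl-CoA binding protein, fell from 735 ± 103 to 334 ± 19.0 (-1.13 ± 0.09, adjusted p = 2.25e-10). Genes of reactive glia rose for 3 of 13 and fell for 0, with a median of 0.16. Cebpd, a factor of the acute phase response, rose from 43.0 ± 5.202 to 84.9 ± 12.2 (0.98 ± 0.16, adjusted p = 4.73e-05). Gfap, the filament of reactive glia, named here after its values were seen, read 54.7 ± 7.04 and 59.3 ± 2.76 and did not pass (adjusted p = 0.451).

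The 15 largest rises also held genes outside these lists. Vtn, vitronectin, an adhesion protein of the extracellular matrix, read 298, 272, 311 and 263 at P10 and 1567, 1772, 1805 and 1917 at 2 months. The adult arrays were all above P10, by 2.62 ± 0.09 (adjusted p = 7.28e-18). Aqp1, a water channel, read 72.4, 74.5, 69.97 and 53.6 and then 356, 401, 367 and 466 and rose by 2.56 ± 0.12 (adjusted p = 1.43e-15), while a second Aqp1 probe set changed by 0.04. Mef2c, a transcription factor of neurons and muscle, read 27.4, 31.4, 38.0 and 26.8 at P10 and 145, 158, 139.7 and 99.4 at 2 months. It rose by 2.13 ± 0.14 (adjusted p = 3.13e-12), and its other 3 probe sets rose by 1.63 to 2.43. Cdr2, a target of autoantibodies in a cerebellar disorder, rose from 78.3 ± 7.42 to 330.0 ± 41.5 (2.07 ± 0.11, adjusted p = 6.82e-14).

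Genes of the synaptic vesicle cycle rose for 9 of 23 and fell for 0, with a median of 0.21. Vamp1, a vesicle SNARE, read 76.1, 78.2, 74.2 and 78.9 and then 129, 147, 135 and 136 and rose by 0.83 ± 0.09 (adjusted p = 4.69e-08), though a second probe set changed by 0.12. Sncb, beta-synuclein, rose by 0.58 ± 0.09 (adjusted p = 1.84e-05). Syt2, a calcium sensor of release, rose by 0.60 ± 0.13 (adjusted p = 0.000931), with 0.05 on a second probe set.

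Voltage-gated channels rose for 7 of 27 and fell for 0, with a median of 0.10. Cacna2d3, an auxiliary calcium channel subunit, read 185, 149.6, 155 and 164 at P10 and 589, 583, 599 and 685.9 at 2 months. Its ages were far apart, with a change of 1.91 ± 0.09 (adjusted p = 2.09e-15). Kcnab2, a potassium channel beta subunit, rose from 152 ± 12.4 to 314 ± 38.3 (1.04 ± 0.10, adjusted p = 7.43e-09), and 0.80 was found on its second probe set. The sodium channel Scn1a rose by 0.81 ± 0.09, Cacnb2, a calcium channel beta subunit, by 0.70 ± 0.12, and the potassium channel Kcna1 by 0.59 ± 0.10 (adjusted p = 1.12e-07, 0.000105 and 4.06e-05). Outside these lists, Trpc1, a cation channel, read 56.1, 44.4, 42.5 and 46.8 and then 203, 205, 191 and 225. It rose by 2.13 ± 0.12 (adjusted p = 2.42e-13), with 1.37 on a second probe set.

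Neurotransmitter receptors rose for 4 of 24 and fell for 1 (16.7% and 4.17%, against 8.37% and 9.16% of all genes). Gabrr2, a GABA receptor subunit of bipolar cells, read 47.0, 46.0, 52.3 and 37.5 at P10 and 122, 124, 115 and 139 at 2 months, and rose by 1.46 ± 0.09 (adjusted p = 2.59e-12). Drd4, the dopamine receptor of photoreceptors, read 849.8, 742, 632 and 293 and then 1043, 1215, 1156 and 1122. Array 4 of P10 was again far below the other P10 arrays, and the change was 0.95 ± 0.19 (adjusted p = 0.000497). Grm8, a glutamate autoreceptor, rose by 0.70 ± 0.09 (adjusted p = 2.02e-06).

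Markers of inner retinal neurons moved both ways. Bipolar genes rose for 3 of 8 and fell for 1, amacrine and horizontal genes rose for 4 of 17 and fell for 3, and ganglion cell genes rose for 3 of 12 and fell for 6, with medians of 0.13, 0.01 and -0.25. Isl1, a factor of bipolar and ganglion cells, read 187, 155, 159 and 181 at P10 and 72.8, 79.5, 88.4 and 85.7 at 2 months and fell by 1.06 (adjusted p = 3.4e-09). Gad1, which makes GABA in amacrine cells, rose from 353 ± 16.3 to 589 ± 69.4 (0.73 ± 0.11, adjusted p = 1.11e-05). Calb1, the calbindin of horizontal and amacrine cells, rose from 104 ± 6.05 to 184 ± 13.4 (0.81 ± 0.10, adjusted p = 9.38e-07). Neither gene had overlapping ages. Npy, neuropeptide Y, fell from 531 ± 152 to 211 ± 4.57 (-1.29 ± 0.12, adjusted p = 1.73e-09), with array 4 of P10, at 756, far above the other P10 arrays. In the ganglion cell list the neurofilament Nefl rose by 0.68 ± 0.09 and the surface protein Thy1 by 0.48 ± 0.10 (adjusted p = 3.59e-06 and 0.000591), while Gap43 and Stmn2, both growth proteins of young axons, fell.

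Genes of neurite growth and axon guidance fell for 21 of 42 and rose for 1, with a median of -0.33. Marcksl1, an actin-binding substrate of protein kinase C, read 519.8, 514, 579 and 625 at P10 and 73.9, 83.0, 82.5 and 88.3 at 2 months. Its adult arrays were all below P10, with a change of -2.77 ± 0.10 (adjusted p = 7.28e-18), and its relative Marcks fell by 1.45 (adjusted p = 4.89e-11). Gap43, the growth cone protein, read 172, 145, 179.9 and 181 and then 60.6, 65.6, 74.2 and 79.2 and fell by 1.28 (adjusted p = 4.34e-10). Dcx, doublecortin of migrating neurons, fell from 123 ± 9.61 to 59.3 ± 6.40 (-1.06 ± 0.09, adjusted p = 3.62e-10). Stmn2, a regulator of microtubules, fell by 1.08 (adjusted p = 2.27e-06). Of the other Stmn2 probe sets, 1 changed by -1.11 and a dim one by -0.05.

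Nnat, neuronatin, an imprinted membrane protein of developing neurons, had the largest fall. It read 607, 752, 707 and 947 at P10 and 91.8, 107, 73.1 and 98.5 at 2 months, after 1616 ± 149 at P2. The change was -3.02 ± 0.11 (adjusted p = 7.28e-18), with all adult arrays far below P10. Cd24a, a surface glycoprotein of immature neurons, read 256, 264, 264 and 378 and then 95.3, 84.5, 93.4 and 102, and fell by 1.61 (adjusted p = 4.39e-13). Array 4 of P10 was the highest, and without it every P10 value of Cd24a was still above every adult value. Ndrg1, linked to differentiation and low oxygen, read 1855, 1632, 1629 and 1952 and then 688, 668, 588 and 785, and fell by 1.38 (adjusted p = 3.89e-12), with -1.32 on a second probe set.

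Progenitor and neurogenic factors fell for 11 of 28 and rose for 0, with a median of -0.21. Sox4, a factor of newborn neurons, read 437, 363, 361 and 552 at P10 and 118, 136, 122 and 110.4 at 2 months and fell by 1.80 (adjusted p = 1.13e-12), with -1.91 on a second probe set. Its relative Sox11 fell by 0.74, Id1 and Id3, inhibitors of differentiation factors, by 0.88 and 0.88, and Zic1 by 0.79 (adjusted p = 0.000223, 2.68e-05, 1.96e-08 and 4.06e-06). Fabp7, a fatty acid carrier of progenitors and immature glia, read 231, 223, 262 and 348 and then 58.6, 44.1, 39.0 and 47.5. It fell by 2.48 (adjusted p = 1.12e-13) with no overlap. Myb, a transcription factor of dividing cells, read 116, 82.8, 94.3 and 151 at P10 and 21.7, 25.9, 27.7 and 31.7 at 2 months, after 1058 ± 78.2 at P2.

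The change of Myb was -2.03 ± 0.18 (adjusted p = 1.63e-09), and its dim second probe set changed by -0.02. Mycn, a transcription factor of growing progenitors, fell from 106 ± 22.5 to 36.8 ± 3.59 (-1.50 ± 0.11, adjusted p = 6.44e-11), with -0.10 on a dim second probe set. Prdm1, which favours photoreceptor over bipolar fate, read 117, 111, 114 and 157 and then 51.4, 41.5, 40.6 and 46.8, a change of -1.46 ± 0.11 (adjusted p = 5.22e-11). Ppp1r14b, an inhibitor of protein phosphatase 1, and D430019H16Rik fell by 1.36 and 1.92 (adjusted p = 3.58e-11 and 6.24e-17).

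Of 31 cell cycle genes 1 rose and 4 fell, against 8.37% and 9.16% of all genes. Cdkn1c, an inhibitor of cyclin-dependent kinases, fell from 181 ± 9.79 to 77.4 ± 9.83 (-1.23 ± 0.11, adjusted p = 1.24e-09), and Cdk4 from 463 ± 63.6 to 263 ± 21.8 (-0.81 ± 0.09, adjusted p = 3.55e-08), with -0.85 on a second probe set. Ccnd1, cyclin D1, averaged 2149.8 ± 199 at P2, 105 ± 14.0 at P10 and 75.3 ± 7.42 at 2 months. Its later change of -0.47 ± 0.10 passed (adjusted p = 0.000977) but was lost when its probe sets were averaged (adjusted p = 0.184). Mcm7, a replication helicase subunit, fell by 0.37 (adjusted p = 0.00369). Among 20 chromatin genes 3 rose and 4 fell, and the paralogous histone methyltransferases moved apart. Ezh2 fell from 122 ± 21.5 to 67.6 ± 9.56 (-0.85 ± 0.10, adjusted p = 4.44e-07), whereas Ezh1 rose from 75.8 ± 9.09 to 124 ± 8.29 (0.72 ± 0.10, adjusted p = 3.16e-06). Hmgb3, a chromatin protein of dividing cells, read 785, 808, 830.0 and 939 and then 274, 301, 311 and 321, a change of -1.48 ± 0.09 (adjusted p = 2.39e-13), and the deacetylase Hdac2 fell by 0.74 (adjusted p = 5.9e-06).

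Ribosomal protein genes fell for 4 of 36 (11.1%, near the 9.16% of all genes) and rose for 0, with a median of -0.04. Rplp0, a stalk protein of the large subunit, fell from 2624 ± 156 to 1505 ± 107 (-0.80 ± 0.09, adjusted p = 6.58e-08). Proteasome genes fell for 6 of 44 (13.6%) and rose for 1. In the knockout 19 of 36 ribosomal and 19 of 44 proteasome genes fell, against 13.1% of all genes. In either list 0 genes had a called difference between genotypes. Genes of sterol and fatty acid synthesis rose for 7 of 23 and fell for 2.

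Among the called genes of vessels and matrix more fell than rose. In the vascular list 8 of 20 fell and 1 rose. Cldn5, claudin of endothelial tight junctions, read 269, 229.8, 228 and 265 at P10 and 114, 106, 93.0 and 150.1 at 2 months, fully below. Its change was -1.12 ± 0.11 (adjusted p = 1.05e-08). Cdh5, endothelial cadherin, fell by 0.63, Eng, endoglin, by 0.62 and Kdr, the VEGF receptor, by 0.50 (adjusted p = 5.84e-07, 2.8e-07 and 0.00246). The median of the list was -0.03, or -0.13 with each gene's probe sets averaged.

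Extracellular matrix genes fell for 10 of 48 and rose for 2, with a median of -0.00. Serpinh1, the collagen chaperone, read 172, 168, 181 and 189 and then 52.6, 54.0, 50.9 and 61.8, a change of -1.70 ± 0.09 (adjusted p = 1.12e-13). Col4a1, a basement membrane collagen, fell from 247 ± 23.0 to 132 ± 7.03 (-0.90 ± 0.10, adjusted p = 1.27e-07). Sparc, a matrix protein, fell by 0.96 (adjusted p = 6.41e-06), while its relative Sparcl1, which astrocytes and Müller cells secrete, rose by 0.81 ± 0.10 (adjusted p = 1.13e-06).

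Immune lists split. Microglia and complement genes fell for 7 of 17 and rose for 0, with a median of -0.21 (-0.08 with probe sets averaged). C1qa read 112, 98.5, 105 and 119.6 at P10 and 69.9, 69.4, 65.3 and 66.3 at 2 months and fell by 0.68 (adjusted p = 1.26e-07). C1qc fell from 246 ± 32.9 to 155 ± 10.2 (-0.66 ± 0.08, adjusted p = 7.63e-07) and C1qb by 0.58 (adjusted p = 0.0036). These 3 genes encode the chains of complement C1q, which tags synapses for removal. The C1qb call was lost when its probe sets were averaged (adjusted p = 0.0821). Genes of antigen presentation and interferon response rose for 11 of 29 and fell for 1, with a median of 0.17. H2-K1, a class I heavy chain, read 84.4, 88.4, 87.0 and 84.8 and then 138, 141, 142 and 165 and rose by 0.76 ± 0.07 (adjusted p = 7.43e-09), with 0.34 and 0.11 on its other probe sets, which may bind related class I genes.

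Markers of tissues next to the retina were measured on the same arrays. Of 11 lens genes 5 rose and 0 fell, with a median of 1.68, and the summed level of the list was 826 to 1335 at P10 and 2140 to 3354 at 2 months. Crygs read 68.8, 54.5, 49.5 and 48.0 at P10 and 212, 327, 432 and 418 at 2 months, a change of 2.61 ± 0.31 (adjusted p = 2.18e-07). Cryba1 read 104, 53.2, 53.3 and 48.8 and then 266, 321, 398 and 396, with 2.47 ± 0.55 (adjusted p = 0.00177). Both crystallins were lowest in 2-month array 1, and Cryba1 was highest at P10 in array 1.

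Cryaa, alpha-crystallin, read 178, 119, 116 and 97.7 and then 401, 511, 598 and 611 and rose by 2.07 ± 0.48 (adjusted p = 0.00272). Crygc read 58.9, 43.7, 39.0 and 30.2 and then 138, 119.7, 249.7 and 257, with 2.11 ± 0.48 (adjusted p = 0.00211). Crygb, gamma-crystallin B, read 25.2, 13.9, 16.1 and 12.9 and then 44.8, 44.8, 108 and 117, with 2.11 ± 0.59 (adjusted p = 0.0128), from percentile 15.5 of P10 levels. Its call was lost without 2-month array 4 (adjusted p = 0.0526). A second, dim Crygb probe set rose by 0.57 (adjusted p = 0.0319). In Crygb and Crygc, 2-month arrays 1 and 2 were well below arrays 3 and 4. Crystallins are lens proteins that the retina also makes at low level. Lens carried over at dissection and expression in the retina cannot be told apart here. Without P10 array 1 the list median was 2.05.

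**Figure D4:**
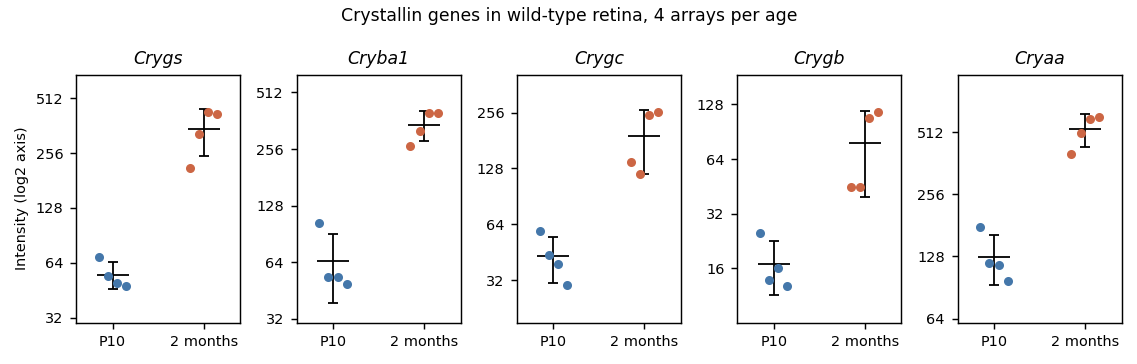
Intensity on a log2 axis of 5 crystallin genes on the 4 wild-type P10 arrays (blue) and the 4 wild-type 2-month arrays (orange); the horizontal line is the mean and the bar 1 SD. The ages do not overlap, but the spread within an age is wide, as in Crygb at 2 months (44.8 to 117). In the lens list 7 of 11 genes lay wholly above P10 at 2 months, against 10.5% of all genes.

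Blood genes fell for 2 of 9 and rose for 0, with a summed level of 1030 to 1280 at P10 and 827 to 869 at 2 months, and Hba-a1, alpha-globin, went from 721 ± 116 to 429.9 ± 38.6 (-0.74 ± 0.11, adjusted p = 1.6e-05). Pigment epithelium genes fell for 2 of 7 and rose for 0, with sums of 375 to 491 and 359 to 382. The melanin genes Pmel and Dct were those that fell, by 0.60 and 0.50 (adjusted p = 3.25e-06 and 0.000739). Muscle genes rose for 1 of 17, Tnnt1, a troponin (0.84 ± 0.09, adjusted p = 2.07e-08), with sums of 802 to 930 and 983 to 1036. Genes of the corneal and conjunctival surface rose for 1 of 12, the keratin Krt18 (1.01 ± 0.09, adjusted p = 6.18e-10), whose dim second probe set changed by 0.04, with sums of 736 to 830 and 852 to 893. Myelin genes, a sign of optic nerve, rose for 1 of 9 and fell for 0. The shares that rose in the muscle, corneal and myelin lists, 5.88%, 8.33% and 11.1%, were near the 8.37% of all genes. The part of carried-over tissue in the vascular, microglial and other results was not tested.

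The same interval was then compared with that of knockout retina, which forms cone-like cells in place of rods. In knockout retina 768 genes rose (9.31%) and 1077 fell (13.1%), on arrays not used for wild type. Higher in both genotypes were 452 genes, 65.4% of those that rose in wild type and 58.9% of those that rose in the knockout. Lower in both were 575, 76.1% and 53.4% of the falling genes, while 9 rose in wild type and fell in the knockout and 10 did the opposite. By the test of the difference between the changes, 110 genes had a higher change in wild type (1.33%) and 121 a lower one (1.47%), or 144 probe sets (1.16%) and 151 (1.22%). Of 691 genes that rose in wild type, 73 rose more than in the knockout and 30 less, and of 756 that fell, 36 fell more and 6 less.

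**Figure D5:**
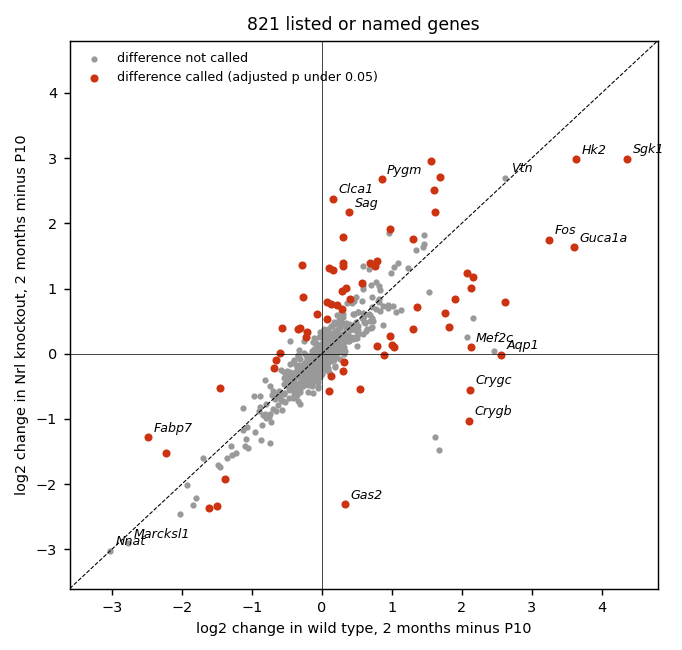
Log2 change from P10 to 2 months in wild-type retina (horizontal axis) and in knockout retina (vertical axis) for the 821 listed or named genes; the dashed line marks equal change and red points are genes whose difference was called. Vtn, Nnat and Marcksl1 lie near the line, while Aqp1, Mef2c, Crygb and Crygc changed in wild type and lie far below it.

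Several of the largest wild-type rises came with little change or a smaller one in the knockout. Aqp1 stood at 49.6 ± 4.94 and 48.9 ± 3.69 in P10 and 2-month knockout retina, and its change was higher in wild type by 2.58 ± 0.16 (adjusted p = 5.5e-11). Mef2c stood at 30.4 ± 2.47 and 32.6 ± 4.03, with a difference of 2.03 ± 0.20 (adjusted p = 6.9e-08). Guca1a rose in both, from 1615 ± 196 to 5018 ± 608 in the knockout, and its change was higher in wild type by 1.97 ± 0.27 (adjusted p = 2.17e-05). Crygb and Crygc had higher changes in wild type by 3.14 ± 0.84 and 2.66 ± 0.68 (adjusted p = 0.0388 and 0.0285). Part of the Crygb difference came from the knockout, where it went from a widely spread 52.8 ± 50.3 to 18.5 ± 3.21. That change of -1.03 did not pass (adjusted p = 0.291 by limma). On the second, dim Crygb probe set the difference between genotypes was 0.71 and did not pass (adjusted p = 0.237). Both crystallin differences, and that of Hk2 below, were lost under several other settings. The lens list had 0 genes called in either direction in the knockout and a median of -0.03.

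Gas2, an actin-associated protein, had a difference of 2.64 ± 0.28 (adjusted p = 2.31e-07), although its wild-type values of 20.3 ± 3.46 and 25.5 ± 2.35 did not pass. It fell in the knockout, from 266 ± 91.1 to 53.2 ± 15.2. A second, dim Gas2 probe set had a difference of 0.22 that did not pass (adjusted p = 0.913). Smaller differences in the same direction were found for Fos (1.50 ± 0.26, adjusted p = 0.000589), Hspa1b (1.41 ± 0.13, adjusted p = 2.16e-08), Hspa1a (1.13 ± 0.13, adjusted p = 1.38e-06) and Sgk1 (1.37 ± 0.15, adjusted p = 7.75e-07). Trpc1, Cacna2d3 and Hk2 followed with 1.12 ± 0.17, 1.07 ± 0.12 and 0.65 ± 0.16 (adjusted p = 0.000121, 1.38e-06 and 0.019). Sgk1 and Hk2 rose in the knockout too, by 2.99 and 2.98.

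The 5 largest differences with a lower change in wild type were those of genes that rose in the knockout. Clca1, a secreted protein linked to chloride channels, stood at 24.8 ± 2.84 and 27.8 ± 3.36 in wild type and went from 85.9 ± 11.1 to 447 ± 57.6 in the knockout, a difference of -2.22 ± 0.22 (adjusted p = 1.49e-07). A second, dim Clca1 probe set had a difference of -0.25 that did not pass (adjusted p = 0.958). Pygm rose in both genotypes, from 109.8 ± 12.1 to 702 ± 84.7 in the knockout, with a difference of -1.82 ± 0.22 (adjusted p = 1.99e-06). Sag went from 984 ± 72.8 to 4453 ± 663 in the knockout, and its change in wild type was lower, by -1.77 ± 0.25 (adjusted p = 2.3e-05). Fkbp9, a prolyl isomerase, and En2, a homeobox factor, had differences of -1.65 ± 0.21 and -1.50 ± 0.13 (adjusted p = 7.07e-06 and 1.21e-08).

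In the Müller list 3 of 15 genes had a called difference with a lower change in wild type, and Glul, at -0.23 ± 0.15, did not pass (adjusted p = 0.887). Clu and Aqp4 had differences of -1.02 ± 0.13 and -0.90 ± 0.18 (adjusted p = 1e-05 and 0.0034), reaching 1465 ± 183 and 209 ± 21.9 in 2-month knockout retina. In the reactive glia list 6 of 13 genes had a called difference, all with a lower change in wild type, and 9 rose in the knockout against 3 in wild type. Fabp7 and Prdm1 fell more in wild type, by -1.20 ± 0.20 and -0.94 ± 0.16 (adjusted p = 0.000228 and 0.000294). Nnat and Marcksl1 changed by -3.02 and -2.90 in the knockout, with differences of -0.00 ± 0.15 and 0.13 ± 0.14 that did not pass. Regulators of phototransduction rose for 10 of 10 in the knockout, with a median of 0.78, against 5 of 10 and 0.35 in wild type. Called differences in that list were higher in wild type for 1 gene, Guca1a, and lower for 3. Among other lists, genes of glycolysis and energy supply rose for 13 and fell for 2 of 25 in the knockout, and rod genes rose for 4 of 9.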

How the data were processed

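Total RNA of whole retina was labelled with biotin and hybridised to Affymetrix arrays, per the labels' protocols. RMA is the method the submitters' processing notes name for the deposited values, which are linear intensities, 1 for each probe set and array. Its version, and the set of arrays it was run on, are not given in the sources used here. Intensities were taken to log2, and 1 model with 6 group means was fitted to all 24 arrays with lmFit and eBayes in limma 3.58.1 (R 4.3.3). Adjustment was by Benjamini and Hochberg's method over the 12422 probe sets that remained after leaving out 66 array controls. Exactly 1 symbol was attached to 10833 probe sets, several to 396 and none to 1193. Where a gene had several probe sets, the brightest by mean log2 intensity over the 24 arrays stood for it.

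Genes named were the 15 that rose most and the 15 that fell most, if called, if their ages did not overlap and if their brighter group averaged at least 100, up to 5 genes of each of 39 lists by size of change, and the 5 largest differences between genotypes in each direction. Lists held 996 genes, 801 of them measured, and were counted without a test. The comparison, the lists and the genes were chosen with earlier results of these data known.

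Replicate numbers are shared between ages. Deviations from the group means correlated at 0.20, 0.12, 0.40 and 0.50 between P10 and 2-month arrays of the same number. Between other pairs they correlated at -0.39 to 0.18. The main fit did not pair samples by number, so its p-values leave out any such pairing. The number entered as a block only in alternative fits. The labels do not say what the numbers share. Alternatives were other scaling, filters, moderation, array weights, thresholds, averaged probe sets, a replicate block and leaving out each replicate. The steps were tested on simulated data. The number of arrays limits the precision. Promoters came from RefSeq (GRCm38.p6). Figures were drawn with matplotlib 3.10.9.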

Additional observations from a re-analysis of the deposited data

Results flagged for a closer look

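In 15 of the 256 groups of 4 wild-type arrays checked, 1 array lay far from the other 3. Chance gives about 1 in 20 such groups. At P10 the fourth array was far from the others for Aqp4 (43.5, others 66.4 to 70.7), Cd24a (378, others 256 to 264), Kcna1 (54.5, others 64.4 to 66.1) and Prdm1 (157, others 111 to 117). The first P10 array was far above the others for Cacnb2 (182, others 121 to 131), Cryba1 (104, others 48.8 to 53.3), Opn1sw (529, others 438 to 445), Pde6g (3979, others 3479 to 3517) and Tnfaip3 (101, others 63.6 to 68.1), and the third for Per2 (7.80, others 6.68 to 6.82). At 2 months the fourth array was far above the others for Abca4 (2093, others 1804 to 1816), Cacna2d3 (685.9, others 583 to 599) and H2-K1 (165, others 138 to 142). The second 2-month array was lowest for Cdh5 (45.1, others 46.7 to 47.0) and the first for Gad1 (485, others 618 to 631).

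The change from P10 to 2 months differed between wild-type and knockout retina, by the test of the difference, for the 22 genes below. The wild-type change was the higher for Crygb (3.14), Crygc (2.66), Gas2 (2.64), Aqp1 (2.58), Mef2c (2.03), Guca1a (1.97), Fos (1.50), Hspa1b (1.41), Sgk1 (1.37), Hspa1a (1.13), Trpc1 (1.12), Cacna2d3 (1.07) and Hk2 (0.65). It was the lower for Clca1 (-2.22), Pygm (-1.82), Sag (-1.77), Fkbp9 (-1.65), En2 (-1.50), Fabp7 (-1.20), Clu (-1.02), Prdm1 (-0.94) and Aqp4 (-0.90). These are log2 differences of changes. The 22 are not all the described genes with a called difference. Others were Krt18 (0.87), Mycn (0.83), Pfkp (0.70), Ndrg1 (0.54), H2-K1 (-0.59) and Rom1 (-0.71).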

How the results depend on the processing

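Over the alternatives, 68.2% to 99.9% of the probe sets called in wild type were called again. With probe sets of mean log2 intensity under 6 left out, 47 probe sets were at least 2-fold higher in place of 83, fewer being tested. Array weights gave 252 probe sets with a higher change in wild type than in the knockout in place of 144, and the cause was not tested. At an adjusted p under 0.01, 94 had a lower change in place of 151. Leaving out each array in turn gave 760 to 841 higher probe sets and 688 to 956 lower, 80 to 90 and 49 to 63 at 2-fold, and 118 to 168 and 117 to 168 for the difference between genotypes. Without 2-month array 1 Prph2 reversed to -0.024, and it ranged up to 0.71 without array 4. Averaging a gene's probe sets ended the calls of C1qb and Ccnd1 and moved 6 list medians: neurite growth to -0.23, vascular to -0.13, heat shock to 0.04, circadian to 0.26, microglia to -0.08 and lens to 1.25.

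With the replicate number as a block, 1130 probe sets were higher and 1210 lower in the fit to 24 arrays, and 1221 and 1305 in the fit to the 8 arrays compared. The block ended the call of the Crygb difference between genotypes (adjusted p = 0.0512), and Sag passed in the fit to 8 arrays. No other call changed among the 128 genes checked for the wild-type change and the 22 checked for the difference between genotypes. Other described differences, such as those of Krt18, Mycn and Rom1, were not checked under the alternatives. The differences of Crygb, Crygc and Hk2 were also lost when single arrays were left out (adjusted p up to 0.118, 0.0857 and 0.0593), and those of Crygb and Crygc with robust moderation (0.170 and 0.137), as was the Crygb rise (0.0553). Dim genes near background have uncertain folds.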
